A study of Homo sapiens with 6 samples.

Results

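The ZNF genes are a large set of human genes named for the zinc finger, a short protein fold that binds DNA. They were taken here as all entries of the expression table whose symbol is ZNF followed by digits alone, with a mean of at least 1 FPKM (sequenced fragments per length of transcript and per mapped fragments) over the 6 libraries. Of 139 such entries, 136 genes met this level. They lay at 131 of the 10066 assembled loci of the table, since 10 of the genes shared 5 loci in pairs. The 3 genes under the level were ZNF84 with a mean of 0.539 FPKM, ZNF274 with 0.669 FPKM and ZNF528 with 0.948 FPKM. The members just above it were ZNF66 with 1.06 FPKM and ZNF598 with 1.06 FPKM.

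The libraries came from RT4, RT112 and SW780, which are human bladder cancer cell lines with a fusion of FGFR3, a receptor tyrosine kinase. The labels give the fusion as FGFR3-TACC3 in RT4 and RT112 cells and as FGFR3-BAIBP2L1 in SW780 cells. Each line was treated for 2 days with DMSO, the solvent, or with quisinostat, an inhibitor of histone deacetylases, at 50 nM in RT4, 10 nM in RT112 and 25 nM in SW780 cells, so that dose and cell line changed together. There was 1 library for each line and treatment, and a difference within a line therefore has no replicate check. For SW780 with quisinostat, 1 of the labels spells the line otherwise. All 6 libraries held the urothelial transcripts GATA3, PPARG, FOXA1, KRT7, KRT8, KRT18 and KRT19, while UPK3A, which encodes a uroplakin, was listed at 0 in both RT112 libraries. KRT5, a basal keratin, had 9.63 FPKM with DMSO and 66.2 with quisinostat in RT112 cells and at most 0.448 in the other lines. UPK2, another uroplakin, went from 51.6 to 6.80 FPKM in RT4, from 5.55 to 8.30 in RT112 and from 36.2 to 6.44 in SW780 cells. UPK1B, also a uroplakin, went the other way in RT4, from 37.5 to 74.3 FPKM. It went from 166 to 228 FPKM in RT112 and from 117 to 65.9 in SW780 cells. The part of such marker shifts in the results on ZNF genes was not tested. The collagen transcripts COL1A1 and COL3A1, markers of stromal cells, were at or below 6.19 FPKM in every library. COL1A1 went from 0.0342 to 0.474 FPKM in RT4, from 0.173 to 1.45 in RT112 and from 0.0558 to 0.504 in SW780 cells. COL3A1 went from 1.13 to 6.19, from 0.0896 to 0.334 and from 2.74 to 1.31 FPKM in the same order. The blood and vessel markers PTPRC, CD3E, PECAM1 and VWF had no entry of that name. In such bulk RNA, fewer cells with a transcript and less of it per cell cannot be told apart. Read counts were not among the deposited values, so that sequencing depth is unknown. Between 213 and 534 loci were listed at 0 in a library, and 28 of 4048 loci with a mean of at least 10 FPKM had such a 0, so that a 0 was read as listed at 0 and not as absence.

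Most human ZNF proteins carry a row of C2H2 zinc fingers, in which a pair of cysteines and a pair of histidines hold a zinc ion, and each finger reads a few bases of DNA. Many of them begin with a KRAB domain, which recruits the corepressor TRIM28 and, through it, the histone methyltransferase SETDB1, HP1 proteins and deacetylases to the bound site. The targets of KRAB zinc finger proteins are often transposable elements, and the genes arose by tandem duplication, for the most part in clusters on chromosome 19. Members without KRAB include transcription activators, a ribosome-associated ubiquitin ligase and proteins of the mitotic spindle.

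The 136 members had this make-up. On chromosome 19 lay 69 genes, or 50.7% of the members, against 6.33% of all loci with a known position. The other 67 genes were spread over 19 chromosomes. The longest open reading frame matched a pattern of the KRAB A box in 66 members, of which 54 were on chromosome 19 (78.3% of the genes there) and 12 elsewhere (17.9%). Divergent KRAB boxes can escape the pattern. The median number of C2H2 fingers was 12 on chromosome 19 and 7 elsewhere, and ZNF91 had the most, with 31. No finger matched in 6 members, which were ZNF185, ZNF330, ZNF365, ZNF703, ZNF706 and ZNF738. The transcripts were poor in G and C. Among loci above 0 in all libraries, the median GC content was 44.5% over 126 member loci against 48.0% over all loci. Taken by gene, it was 42.5% on chromosome 19 against 48.0% for the members elsewhere. The range ran from 33.8% to 70.3%. Levels were low. Over loci above 0 in all libraries, the median of the mean FPKM was 3.84 for 126 member loci and 8.74 for all 8898 loci. Reads can be shared between genes with stretches of the same sequence. In 24 members, 19 of them on chromosome 19, over 20% of the 31-base windows of the transcript also occurred in a transcript of another gene, and in ZNF443, ZNF468, ZNF320 and ZNF410 over 50% did. Windows of genes that overlap in position were counted too, and ZNF320 and ZNF468 overlap. A high share therefore need not come from duplication. The FPKM of the genes with many shared windows is uncertain.

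The promoters showed a feature that the choice of genes did not use. RefSeq promoters of 300 bases (GRCh38.p14, 250 bases before to 50 after the start of the gene) were matched by symbol for 121 of the 136 members. For some members the window does not contain the start of the gene in the GENCODE transcripts, which limits the shares of motifs below. The CCAAT box, the binding motif of NF-Y (letters CCAAT or, on the other strand, ATTGG), occurred in 63 of the 121 promoters, or 52.1%. It occurred in 39 of 62 members on chromosome 19 (62.9%) and in 24 of 59 elsewhere (40.7%), against 35.7% of all 27305 promoters, 37.6% of the promoters of genes in the table and 41.5% of those of 448 other table genes on chromosome 19. The GC box, bound by SP1 (GGGCGG or CCGCCC), was in 67.8% of the members' promoters, 44.6% of all promoters and 71.5% of those of genes in the table. The letters ACTACAA, the core of the site bound by the member ZNF143, stood in 9 members' promoters on either strand, or 7.44%, against 2.95% of all promoters and 4.01% of those of genes in the table. On chromosome 19 they stood in 3 of 62 (4.84%) and elsewhere in 6 of 59 (10.2%). The median count of CpG dinucleotides was 23 in the members, 14 in all promoters and 27 in those of genes in the table. A match to letters is a description and not evidence of binding, and a CCAAT box and a GC box can share bases. Genes that arose as copies can hold copied promoters, so that these shares do not count independent promoters.

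The promoters below, each 5′ to 3′ on the strand of its gene, belong to ZNF91 and ZNF93, which are KRAB repressors of transposable elements, to 3 genes of chromosome 19 that were higher after quisinostat in all lines (ZNF57, ZNF324 and ZNF350), and to ZNF880 and ZNF436, which were lower in all lines. Capitals mark CCAAT boxes and GC boxes on either strand.
ZNF91 (chr19:23395422-23395721, minus strand): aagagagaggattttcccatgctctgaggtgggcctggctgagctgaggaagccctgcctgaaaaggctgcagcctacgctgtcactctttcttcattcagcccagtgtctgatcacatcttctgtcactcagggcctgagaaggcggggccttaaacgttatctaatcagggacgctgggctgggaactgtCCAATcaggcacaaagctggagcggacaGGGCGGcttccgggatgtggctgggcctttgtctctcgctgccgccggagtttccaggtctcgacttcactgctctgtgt
ZNF93 (chr19:19900696-19900995, plus strand): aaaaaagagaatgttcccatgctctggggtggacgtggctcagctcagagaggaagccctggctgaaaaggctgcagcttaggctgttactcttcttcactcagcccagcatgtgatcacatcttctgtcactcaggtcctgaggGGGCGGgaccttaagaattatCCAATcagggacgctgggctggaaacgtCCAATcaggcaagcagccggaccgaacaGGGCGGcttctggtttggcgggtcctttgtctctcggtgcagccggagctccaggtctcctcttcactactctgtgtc
ZNF57 (chr19:2900678-2900977, plus strand): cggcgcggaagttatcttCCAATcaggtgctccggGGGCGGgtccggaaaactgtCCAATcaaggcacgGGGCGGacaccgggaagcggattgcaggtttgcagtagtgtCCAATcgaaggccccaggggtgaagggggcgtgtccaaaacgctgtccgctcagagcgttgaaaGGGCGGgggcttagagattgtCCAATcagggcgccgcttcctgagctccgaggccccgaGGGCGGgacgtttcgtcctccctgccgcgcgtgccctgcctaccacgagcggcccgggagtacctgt
ZNF324 (chr19:58466830-58467129, plus strand): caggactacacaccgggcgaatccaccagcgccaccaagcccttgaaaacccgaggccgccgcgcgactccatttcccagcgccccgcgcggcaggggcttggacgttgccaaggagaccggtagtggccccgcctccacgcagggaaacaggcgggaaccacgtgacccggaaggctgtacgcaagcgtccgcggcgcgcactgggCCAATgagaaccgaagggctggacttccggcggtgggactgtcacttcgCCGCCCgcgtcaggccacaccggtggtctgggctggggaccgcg
ZNF350 (chr19:51986791-51987090, minus strand): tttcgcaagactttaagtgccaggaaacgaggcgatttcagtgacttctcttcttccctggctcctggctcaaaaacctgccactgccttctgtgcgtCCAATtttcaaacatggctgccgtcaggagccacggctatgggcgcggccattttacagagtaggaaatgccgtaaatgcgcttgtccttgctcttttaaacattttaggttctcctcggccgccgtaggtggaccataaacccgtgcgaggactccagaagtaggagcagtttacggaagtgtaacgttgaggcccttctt
ZNF880 (chr19:52369673-52369972, plus strand): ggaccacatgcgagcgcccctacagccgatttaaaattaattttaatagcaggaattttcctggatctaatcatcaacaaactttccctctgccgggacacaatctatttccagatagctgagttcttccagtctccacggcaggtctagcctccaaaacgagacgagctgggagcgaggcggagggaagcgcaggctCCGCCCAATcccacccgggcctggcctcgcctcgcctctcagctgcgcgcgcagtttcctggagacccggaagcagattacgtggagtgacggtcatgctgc
ZNF436 (chr1:23369787-23370086, minus strand): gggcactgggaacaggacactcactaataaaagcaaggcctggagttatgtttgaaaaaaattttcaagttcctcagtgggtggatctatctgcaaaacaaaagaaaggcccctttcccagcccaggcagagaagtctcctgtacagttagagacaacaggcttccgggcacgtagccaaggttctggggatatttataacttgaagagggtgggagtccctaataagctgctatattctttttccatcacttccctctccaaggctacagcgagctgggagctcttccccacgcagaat

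ZNF57 held 4 CCAAT boxes and 4 GC boxes in this window, and ZNF93 held 2 of each. ZNF91, ZNF324 and ZNF880 held 1 of each, and in ZNF880 the boxes share bases. ZNF350 held 1 CCAAT box, and the ZNF436 window held neither motif and only 4 CpG dinucleotides, against 35 in ZNF324. That ZNF436 window (chr1:23369787-23370086) lies wholly before the start of this minus-strand gene at 23369442 in the GENCODE transcripts. The other windows printed above contain the start given there. Windows of members not printed here can miss that start too, as those of ZNF24, ZNF41, ZNF143 and ZNF217 do. Whether windows placed at the GENCODE start hold the motifs, in ZNF436 or in other members, was not tested. Among the members, those with the CCAAT box had median log2 ratios of quisinostat over DMSO of 0.12 (RT4), -0.03 (RT112) and 0.13 (SW780), and those without it had 0.03, 0.03 and 0.00. The 9 with the ZNF143 core had medians of 0.71, 0.06 and 0.41 in the same order, and the 112 without it 0.08, 0.00 and 0.04. These are plain ratios with no correction for GC content, taken per gene, so that genes sharing a locus each count. Genes listed at 0 in a line are in these counts but have no ratio there. Neither difference was tested.

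Before treatment, the ZNF genes stood highest in RT4 cells. Among the 131 loci, the DMSO library with the highest FPKM was RT4 at 85 loci (64.9%), SW780 at 30 and RT112 at 16, whereas RT4 was highest at 36.6% of all loci with a mean of at least 1 FPKM. The median DMSO level of the members was 4.63 FPKM in RT4, 2.87 FPKM in RT112 and 3.17 FPKM in SW780 cells. The medians of all loci were close together, at 7.63, 7.35 and 7.67 FPKM. RT4 was highest more often on chromosome 19, where 49 of 64 loci (76.6%) were highest in RT4 cells and only 3 lowest there, and where the medians were 4.14, 2.06 and 1.92 FPKM. Elsewhere RT4 was highest at 36 of 67 loci (53.7%), and the medians were 5.49, 4.18 and 4.36 FPKM. The 462 other loci of chromosome 19 used for the ratios below also had their highest DMSO median in RT4 cells, at 11.4 FPKM against 6.48 in RT112 and 6.96 in SW780, so that a high level in RT4 on this chromosome was not limited to ZNF genes. Other loci of like level, with a mean of 2.57 to 5.82 FPKM, were highest in RT4 in 38.04% of cases. With 1 DMSO library a line, a difference between lines and a difference between libraries cannot be told apart.

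Along chromosome 19 the members fell into 12 groups when neighbours over 1 Mb apart were split, and the lines did not order every group alike. In the group from ZNF14 to ZNF738 (chr19:19710471-21379302, 7 loci, all with KRAB), the median DMSO level was 2.90 FPKM for RT4, 1.71 for RT112 and 0.599 for SW780 cells. All 7 of these loci were higher in RT4 than in SW780, and 6 were higher in RT112 than in SW780. In the group from ZNF784 to ZNF324 near the end of the long arm (chr19:55620742-58475436, 16 loci), the medians were 5.21, 1.78 and 3.26 FPKM, and here only 2 loci were higher in RT112 than in SW780 cells while all 16 were higher in RT4 than in RT112. In the group from ZNF175 to ZNF331 (chr19:51571298-53580269, 15 loci) they were 4.10, 1.62 and 2.83 FPKM, with 14 loci higher in RT4 than in RT112. SW780 cells thus had the lowest median in the proximal group and RT112 cells in both distal groups.

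**Figure D1:**
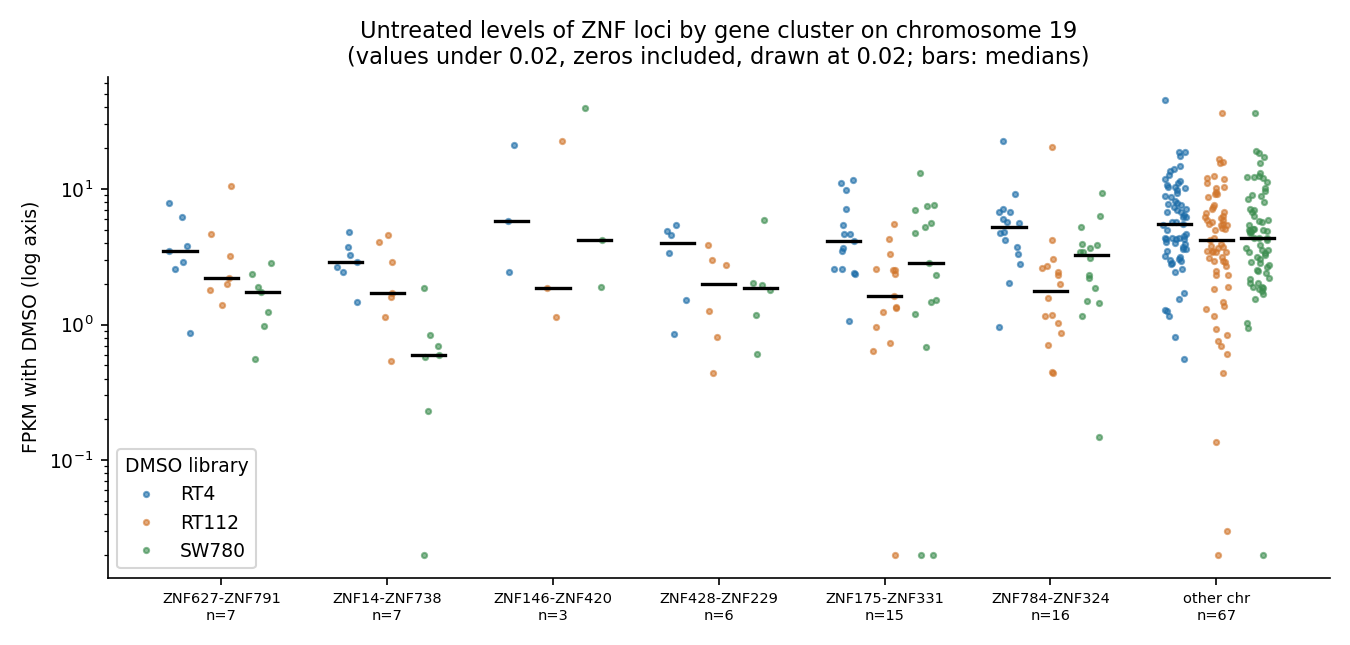
FPKM in the DMSO libraries of RT4, RT112 and SW780 cells (log axis) for ZNF loci in the 6 chromosome 19 groups of 3 or more loci, named by their first and last gene, and for the 67 loci on other chromosomes. Each point is 1 locus and each bar a median. RT4 medians are the highest in each group, and in the ZNF14 to ZNF738 group the median drops to 0.599 FPKM in SW780 cells.

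After quisinostat, the ZNF genes as a set did not move one way. The response was taken as the plain log2 ratio of FPKM with quisinostat over DMSO in the same line, for the 126 member loci above 0 in all libraries, and it was set against 8898 loci chosen in the same way. The median log2 ratio of the members was 0.06 (RT4), 0.04 (RT112) and 0.05 (SW780), and that of all loci was 0.08, 0.05 and 0.03. The study used a limit of -0.3 for genes that were lower, and 0.3 was taken here for the higher side as well. A log2 ratio above 0.3 was reached by 50 members in RT4 cells, where 39.9% of all loci reached it, by 42 in RT112 (35.2%) and by 39 in SW780 (32.4%). A ratio below -0.3 was found for 41 members in RT4 (33.5% of all loci), 24 in RT112 (25.4%) and 29 in SW780 (28.1%). As shares of the 126 members these are 39.7%, 33.3% and 30.95% for the higher side, and 32.5%, 19.05% and 23.0% for the lower side, near the background or below it.

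The members' ratios were less spread than those of all loci and of other loci of like FPKM. The interquartile range of their log2 ratio was 1.13 (RT4), 0.61 (RT112) and 0.66 (SW780), against 1.23, 0.83 and 0.80 over all loci and 1.53, 1.05 and 1.08 over the 1982 other loci of like FPKM. In RT4 cells this did not hold against 3488 other loci of like GC content (41.3% to 52.2%). Their quartiles there were -0.22 and 0.78, against -0.54 and 0.59 for the members. The 670 other loci of like FPKM and GC content had RT4 quartiles of -0.26 and 1.02. Changes above 1 on the log2 scale, that is a doubling, were seen in 18 members in RT4 (17.4% of all loci), 12 in RT112 (12.7%) and 6 in SW780 (9.81%). Changes below -1 were seen in 23 members in RT4 (13.9%), 2 in RT112 (3.42%) and 8 in SW780 (7.02%). Thus 18.3% of the members were under -1 in RT4 cells, above the background, and 4.76% were above 1 in SW780 cells, under it. No member passed 1 in the same direction in all lines, where 2.61% of all loci did so upward and 0.258% downward.

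Set against loci of like level, the medians of the members were lower in RT4 and RT112 cells and about equal in SW780 cells. Other loci of like FPKM had median log2 ratios of 0.13, 0.16 and 0.05 in RT4, RT112 and SW780 cells. The 670 other loci of like FPKM and like GC content (41.3% to 52.2%) had medians of 0.34, 0.01 and 0.18. The members as a whole span a wider range of GC content, and the 42 of middle GC content among them had medians of 0.29, 0.02 and 0.15, close to those loci. These are descriptions of 1 pair of libraries each, and no test was made.

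**Figure D2:**
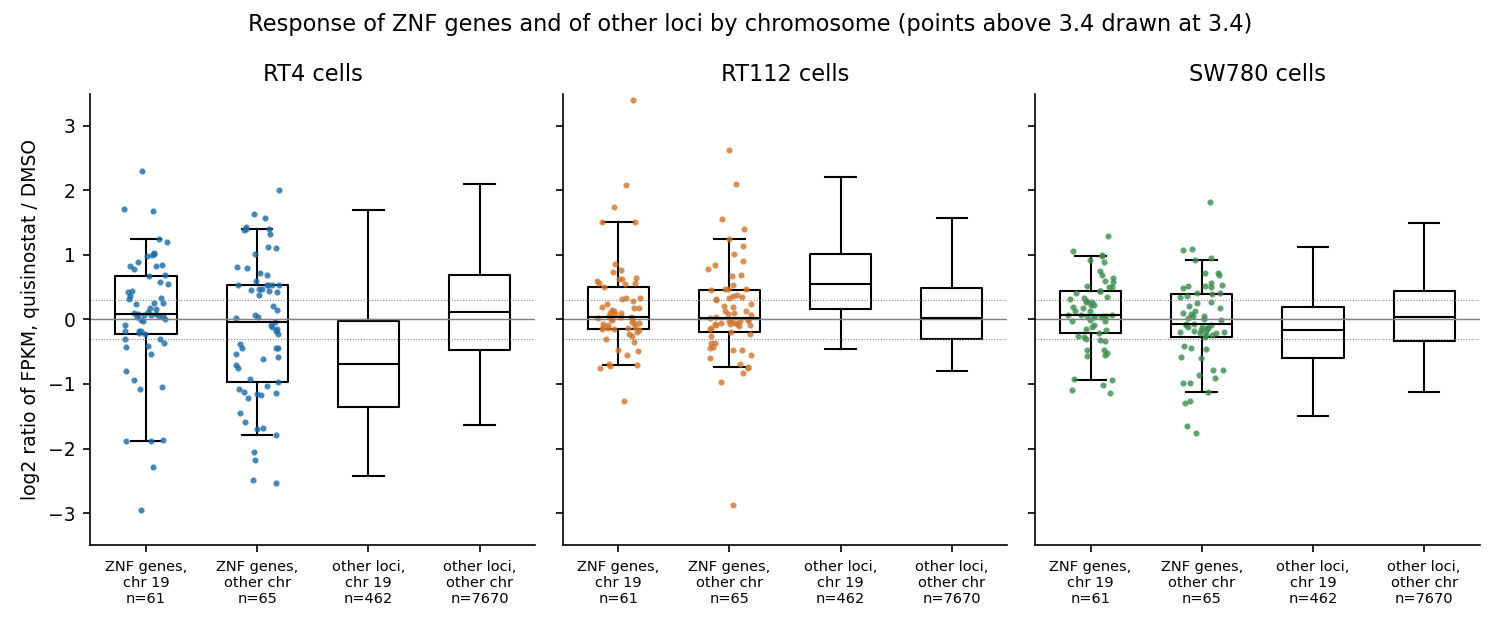
Log2 ratio of FPKM with quisinostat over DMSO in each line for ZNF loci on chromosome 19 (61), ZNF loci elsewhere (65) and other loci on chromosome 19 (462) and elsewhere (7670). Boxes span the quartiles with the median, whiskers the 5th to 95th percentile, points single ZNF loci, and dotted lines ±0.3. The other loci of chromosome 19 shifted down in RT4 and up in RT112 cells, while the ZNF loci of that chromosome had medians of 0.09 and 0.04. These are ratios before the GC correction.

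On chromosome 19 the plain ratios of ZNF loci differed from those of other loci, and after the GC correction this gap was small. The 61 ZNF loci had median log2 ratios of 0.09 (RT4), 0.04 (RT112) and 0.08 (SW780). The 462 other loci of the same chromosome, which are rich in GC (median 59.8%), had medians of -0.69, 0.55 and -0.17. After a smooth curve of ratio on GC content over all loci was subtracted, the medians were -0.20, 0.12 and -0.01 for the ZNF loci and -0.07, 0.01 and 0.00 for the other loci of the chromosome. The 65 ZNF loci on other chromosomes had medians of -0.04, 0.02 and -0.07, and a wider spread in RT4 cells, with quartiles at -0.97 and 0.54 against -0.22 and 0.67 on chromosome 19. The difference of the medians, chromosome 19 minus other chromosomes, was 0.12, 0.03 and 0.15. With the same correction it was -0.14, 0.05 and 0.00.

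The members' ratios differed by GC content. In the 42 member loci richest in GC (median 57.5%), the median log2 ratio was -0.87 (RT4), 0.36 (RT112) and -0.14 (SW780), with 28 of 42 loci below -0.3 in RT4 and 24 of 42 above 0.3 in RT112. In the 42 poorest (median 40.1%) it was 0.21, -0.07 and 0.05, and in the 42 between them 0.29, 0.02 and 0.15. The same split held on either side of 50% GC within chromosome 19, at 0.17, 0.00 and 0.10 for 50 loci under it and -0.94, 0.51 and -0.16 for 11 loci of 50% or more. On other chromosomes the values were 0.46, -0.07 and 0.06 for 37 loci under 50% and -1.05, 0.36 and -0.16 for 28 loci of 50% or more. The Spearman correlation of ratio and GC content over the 126 members was -0.39 (RT4), 0.39 (RT112) and -0.21 (SW780), and over 8258 loci it was -0.50, 0.43 and -0.23. Over the 61 members on chromosome 19 it was -0.15, 0.35 and -0.06, and over the 65 elsewhere -0.53, 0.44 and -0.28. The points share a pair of libraries, and the part of library preparation in this trend was not tested.

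**Figure D3:**
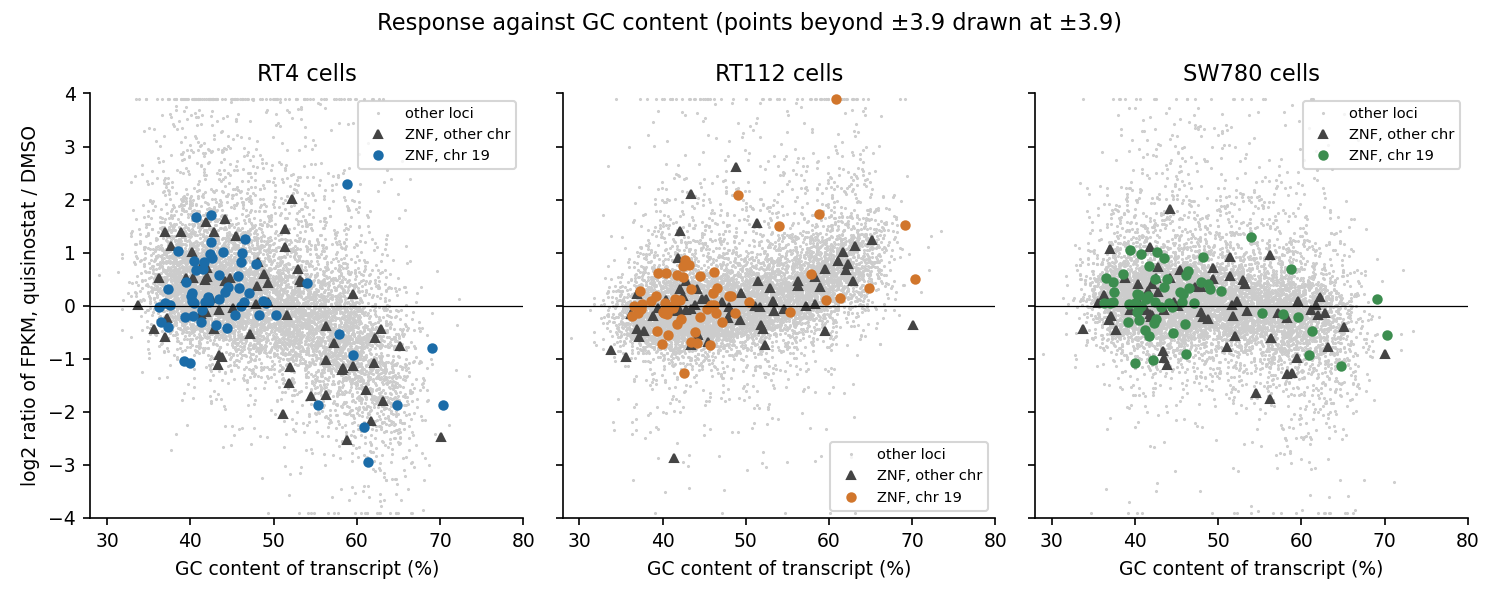
Log2 ratio of FPKM with quisinostat over DMSO against the GC content of the longest coding transcript in each line. Grey points are other loci, triangles ZNF loci outside chromosome 19 and coloured circles ZNF loci on chromosome 19. The ratios of ZNF loci run down with GC content in RT4 cells (Spearman -0.39) and up in RT112 cells (0.39), as do the grey points.

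The KRAB genes followed this split. The 58 loci with the KRAB pattern (median GC 42.4%) had median log2 ratios of 0.29 (RT4), -0.04 (RT112) and 0.13 (SW780), and the 68 without it (51.3%) had -0.31, 0.12 and -0.07. In RT4 cells 29 of the 58 KRAB loci were above 0.3 and 7 below -0.3, whereas 21 of the 68 others were above and 34 below. After the GC correction the medians were -0.04, 0.10 and 0.02 with KRAB, and -0.21, 0.08 and -0.01 without. Between lines, the members' ratios had a Spearman correlation of 0.61 for RT4 and SW780, of -0.08 for RT4 and RT112 and of 0.08 for RT112 and SW780 (126 loci). Over all loci these were 0.56, 0.03 and 0.19. After the GC correction they were 0.59, 0.21 and 0.28 over the members and 0.56, 0.32 and 0.34 over all loci.

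A log2 ratio above 0.3 in all lines was found at 14 of the 126 loci (11.1%), where 10.9% of all loci had one, and a ratio below -0.3 in all lines at 5 (3.97%), where 5.0% of all loci did. Both shares lie near the background. Of the 14 higher loci 9 were on chromosome 19, and of the 5 lower loci 1 was, where 61 of the 126 loci used lie on that chromosome. The 14 were ZNF185, ZNF350, ZNF324, ZNF57, ZNF649, the shared locus of ZNF222 and ZNF284, ZNF174, ZNF486, ZNF71, ZNF189, ZNF329, ZNF394, ZNF561 and ZNF365. The 5 were ZNF436, ZNF880, ZNF692, ZNF740 and ZNF219. After the GC correction 9 of the 14 and 5 of the 5 kept their call. ZNF486, ZNF329 and ZNF561 on chromosome 19 and ZNF189 and ZNF394 elsewhere lost it. With a pseudocount of 1, 6 of 131 loci (4.58%) were higher in all lines, and 8.95% of all loci. Without the RT112 pair, 29 member loci (23.0%) were higher and 20 (15.9%) lower in the other two lines, against 22.7% and 17.9% of all loci. Without the RT4 pair 8 were lower (6.35%, against 9.45% of all loci), and without the SW780 pair 8 as well (against 8.19%).

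ZNF185 (chrX:152914442-152973480), whose product is a LIM domain protein of the actin cytoskeleton and has no C2H2 finger, had the largest weakest ratio. Its FPKM went from 2.58 to 6.98 in RT4, from 5.51 to 16.2 in RT112 and from 12.2 to 23.1 in SW780 cells. It was higher with quisinostat in each line, by 2.71, 2.94 and 1.89 times, and with DMSO it was lowest in RT4 and highest in SW780 cells.

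The other 4 of the 5 loci with the highest weakest ratio were KRAB genes of chromosome 19. ZNF350 (chr19:51964343-51986856, minus strand), a KRAB repressor known to bind BRCA1, went from 2.39 to 4.44 FPKM in RT4, from 0.967 to 1.75 in RT112 and from 2.30 to 4.62 in SW780 cells, with log2 ratios of 0.89, 0.86 and 1.00. These were the most even ratios of the 5 genes. ZNF649 (chr19:51889224-51905040), its near neighbour, went from 1.07 to 1.90, from 2.35 to 3.496 and from 2.83 to 4.76 FPKM, with ratios of 0.83, 0.57 and 0.75. ZNF57 (chr19:2900898-2918476), far from them on the short arm, went from 3.86 to 7.68, from 2.77 to 4.32 and from 1.75 to 2.63 FPKM, with ratios of 0.99, 0.64 and 0.59. ZNF324 (chr19:58467045-58475436) had the highest ratio of all members in RT4 cells, 2.30, from 0.953 to 4.68 FPKM. In RT112 it went from 0.702 to 2.34 FPKM and in SW780 from 2.21 to 3.57 FPKM. With a GC content of 58.8% it stood against the trend of GC-rich members in RT4 cells, and 37.7% of its windows occur in another gene, which leaves its level uncertain.

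Among the lower genes, ZNF436 (chr1:23359448-23369442), a KRAB gene with 12 fingers, went from 8.69 to 3.98 FPKM in RT4, from 5.93 to 3.54 in RT112 and from 7.07 to 3.91 in SW780 cells. Its log2 ratios were -1.13, -0.74 and -0.85, and all 3 quisinostat libraries lay below all 3 DMSO libraries. ZNF880 (chr19:52369917-52385795) went from 4.63 to 2.18, from 1.62 to 0.981 and from 1.19 to 0.560 FPKM, with ratios of -1.09, -0.73 and -1.09. Unlike the high-GC members that were lower in RT4 cells, ZNF436 (43.4% GC) and ZNF880 (40.0%) are poor in GC, and their RT4 ratios were -1.48 and -1.54 after the GC correction. ZNF692 (chr1:248850006-248859144) went from 6.42 to 2.92, from 5.13 to 3.69 and from 4.99 to 2.52 FPKM, with no overlap of DMSO and quisinostat values. ZNF740 (chr12:53180700-53195141) went from 5.49 to 2.47, from 6.65 to 4.88 and from 6.26 to 4.19 FPKM, and its DMSO and quisinostat values did not overlap either. ZNF219 (chr14:21090046-21104722), the richest in GC of the 5 at 70.1%, went from 3.61 to 0.646 FPKM in RT4, from 3.42 to 2.65 in RT112 and from 2.83 to 1.504 in SW780 cells. Its RT4 ratio of -2.48 was -0.69 after the GC correction, and its RT112 ratio of -0.37 was -1.65. Its quisinostat values all lay below its DMSO values, by a narrow margin in RT112 cells. These 5 lower genes were picked by their ratios in the same libraries, so that such a separation follows in part from the choice. The share of all loci with such a separation is not given here.

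**Figure D4:**
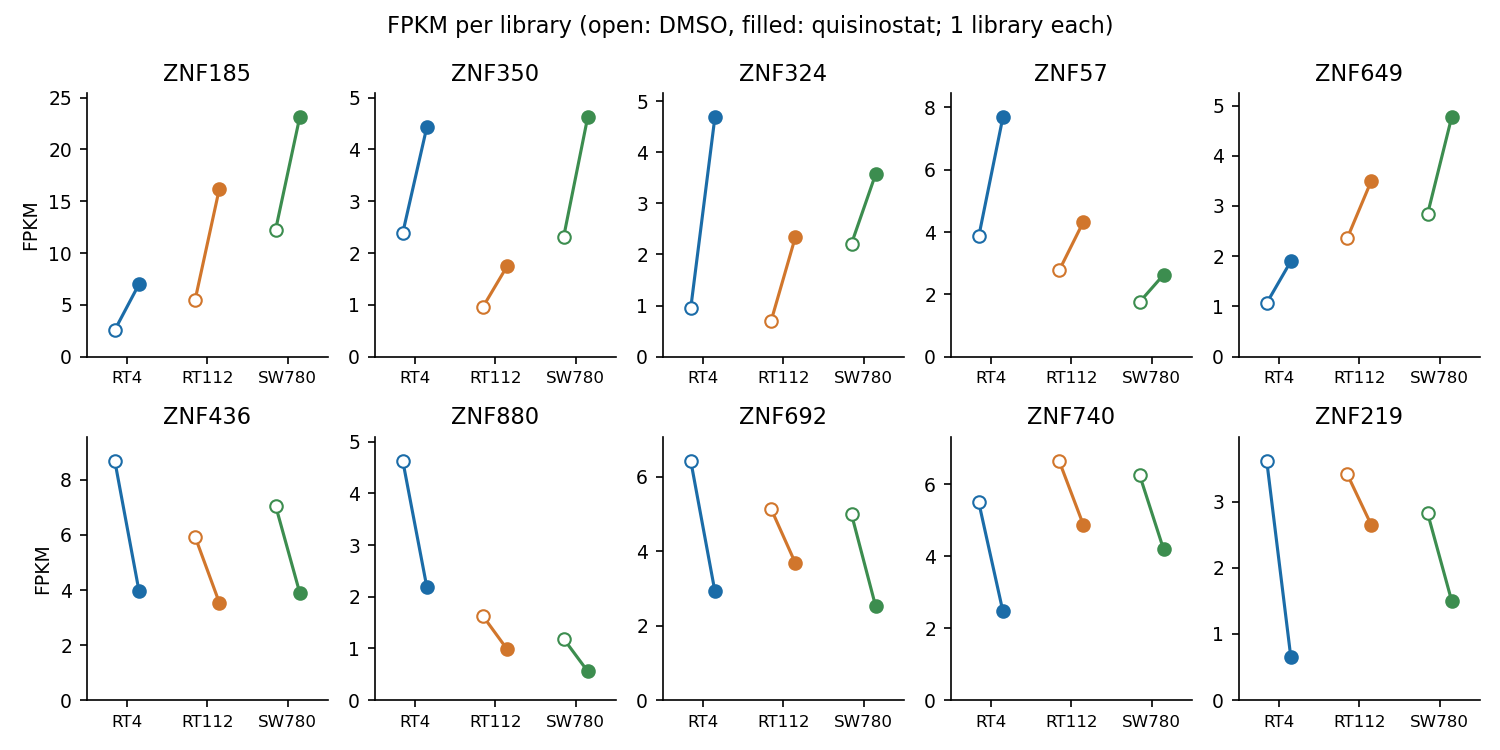
FPKM in each library for the 5 ZNF genes with the highest (upper row) and the 5 with the lowest (lower row) weakest log2 ratio over the lines. Open circles are DMSO, filled circles quisinostat, and a line joins the libraries of 1 cell line, with a scale of its own for each gene. ZNF185 reaches 23.1 FPKM in SW780 cells with quisinostat, and ZNF219 drops to 0.646 FPKM in RT4 cells.

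Among the members are 2 KRAB genes with known transposon targets. ZNF91 (chr19:23304991-23395560), the repressor of SVA elements, had 4.01 FPKM with DMSO and 4.14 with quisinostat in RT4, 2.23 and 2.02 in RT112, and 0.799 and 0.824 in SW780 cells. ZNF93 (chr19:19900913-19963464), which binds LINE-1 elements, had 4.81 and 5.11, 2.89 and 2.98, and 0.695 and 0.640 FPKM in the same order. Their log2 ratios lay between -0.14 and 0.09, but in RT4 cells they became -0.52 for ZNF91 and -0.36 for ZNF93 after the GC correction. Both were listed highest in RT4, then in RT112 and lowest in SW780 cells. Of their windows, 24.9% and 25.9% are shared with other genes.

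The transcription factors among the members gave mixed values. ZNF143, an activator bound at many promoters, went from 2.995 to 3.32 FPKM in RT4, from 1.89 to 2.15 in RT112 and from 2.01 to 2.90 in SW780 cells, with ratios of 0.15, 0.19 and 0.53, which became -0.23, 0.35 and 0.41 after the GC correction. ZNF148, a regulator that binds GC-rich promoters, went from 3.51 to 2.57, from 5.56 to 2.84 and from 3.39 to 3.53 FPKM, with ratios of -0.45, -0.97 and 0.06. ZNF24, a SCAN domain factor, had ratios of -0.23, -0.59 and -0.20, and its level lay between 9.79 and 15.9 FPKM. ZNF217, an oncogene amplified in breast cancer, had 17.6 and 16.6 FPKM in RT4, 15.6 and 14.8 in RT112 and 19.1 and 18.2 in SW780 cells (ratios from -0.09 to -0.07), but its RT4 ratio was -0.43 after the GC correction. ZNF703, a cofactor amplified in luminal breast cancer, went from 4.28 to 2.54 FPKM in RT4, from 0.758 to 1.796 in RT112 and from 1.90 to 1.43 in SW780 cells, lower past the limit in RT4 and SW780 and higher in RT112. Its GC content is 65.2%, and after the GC correction its RT4 ratio of -0.75 became 0.56.

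The next genes were named for other roles or for their high level. ZNF207, which helps load BUB3 on kinetochores, went from 18.6 to 12.4 FPKM in RT4, from 16.7 to 12.4 in RT112 and from 17.2 to 14.3 in SW780 cells, and shared its assembled locus with another gene name. All 3 quisinostat values lay below the DMSO values, with ratios of -0.59, -0.43 and -0.27. How many of all loci separate in this way is not given here. ZNF622, a factor of the large ribosomal subunit, went from 10.7 to 14.97, from 12.5 to 13.3 and from 15.4 to 20.5 FPKM (0.48, 0.08 and 0.41). ZNF664 had the highest mean FPKM of the members, 43.3, and went from 45.5 to 59.1 in RT4, from 36.3 to 35.6 in RT112 and from 36.4 to 46.8 in SW780 cells. ZNF146, a protein made almost only of fingers, had 21.0 and 19.7, 22.4 and 22.6, and 39.5 and 43.3 FPKM, with ratios between -0.09 and 0.13, and an RT4 ratio of -0.51 after the GC correction. ZNF552, a KRAB gene of the distal chromosome 19 group, went from 22.5 to 39.9 in RT4, from 20.3 to 23.9 in RT112 and from 9.31 to 7.37 FPKM in SW780 cells, so that it was past the limit upward in RT4 (0.83) and downward in SW780 (-0.34).

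In 5 members, the DMSO level was under 0.1 FPKM in a line and at least 1 FPKM in another, and these were also the 5 loci with a 0. ZNF41 (chrX:47445879-47482946), a KRAB gene, was listed at 0 in RT112 with DMSO and at 0.202 FPKM with quisinostat, and went from 1.71 to 3.30 in RT4 and from 1.04 to 2.28 in SW780 cells. ZNF347 (chr19:53124072-53159075), also KRAB, was listed at 0 and 0.436 FPKM in RT112, at 0.0049 and 0.188 in SW780, and at 2.55 and 4.58 in RT4 cells. Both genes thus had the higher value with quisinostat in each line, but stayed under 0.5 FPKM where the DMSO value was listed under 0.1. Its neighbour ZNF415 was listed at 0 in both SW780 libraries, with 3.66 and 3.79 FPKM in RT4 and 0.726 and 0.538 in RT112 cells. ZNF738 was at 0.0020 and 0 in SW780, 1.47 and 1.61 in RT4 and 4.57 and 3.08 FPKM in RT112 cells. ZNF598, the ubiquitin ligase that marks collided ribosomes, was at 2.45 FPKM and 0 in RT4, 0.030 and 3.82 in RT112, and 0 and 0.0585 in SW780 cells. Such jumps between 0 and several FPKM in opposite directions were not seen in the other 4.

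The most extreme members of each line, named after their values were seen, were these. In RT112 cells ZNF574 went from 0.115 to 3.96 FPKM (log2 ratio 5.11), against 9.40 to 1.93 in RT4 and 3.28 to 1.72 in SW780 cells. ZNF22 was at 0.137 and 0.0188 FPKM in RT112, but at 13.6 and 12.2 in RT4 and 10.1 and 9.63 in SW780 cells. ZNF428 had the lowest ratio in RT4 cells, -2.96, from 5.38 to 0.693 FPKM. In SW780 cells ZNF511 had the lowest, -1.75, from 4.78 to 1.42 FPKM, and went from 7.83 to 2.44 in RT4 but from 6.75 to 8.77 in RT112. ZNF365 had the highest in SW780 cells, 1.81, from 1.78 to 6.26 FPKM, and went from 1.28 to 3.98 in RT4 and from 2.95 to 3.65 in RT112.

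Across the lines, limma on log2(FPKM + 1) with cell line as a block had 2 residual degrees of freedom, and a fold on this scale understates the change of low genes. None of the 131 member loci had a Benjamini-Hochberg adjusted p under 0.05 over the 9430 loci fitted, and neither had any other locus (0%). At an unadjusted p under 0.05, 4 members were higher (ZNF185, ZNF324, ZNF365 and ZNF883) where 9.68% of all loci were, and 3 were lower (ZNF436, ZNF488 and ZNF692) where 4.16% were. The smallest adjusted p of a member, by limma, was 0.245 for ZNF185, with a difference of 1.14 on the log2(FPKM + 1) scale (SE 0.214), higher in 3 of 3 lines. ZNF436 followed with -0.76 (SE 0.222, limma adjusted p = 0.311), lower in 3 of 3 lines. The smallest adjusted p over all loci was 0.161. At the same unadjusted limit, limma called 8 members higher (6.11%) and 10 lower (7.63%) without the RT112 pair, where 12.4% and 9.43% of all loci were called. It called 1 and 0 without RT4 (5.54% and 2.55% of all loci), 2 and 0 without SW780 (4.14% and 0.785%), and 0 and 1 without the block (3.33% and 1.12%).

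The corepressors that KRAB proteins recruit were all in the table, 12 of 12. TRIM28, which binds KRAB itself, went from 161 to 46.6 FPKM in RT4, from 54.5 to 68.9 in RT112 and from 107 to 58.0 in SW780 cells, a log2 ratio of -1.79, 0.34 and -0.89. It lies on chromosome 19, and at 63.7% GC its ratios were -0.62, -0.50 and -0.53 after the GC correction. SETDB1, the H3K9 methyltransferase, went from 8.31 to 2.46, from 7.38 to 5.53 and from 5.34 to 3.39 FPKM. CBX5, which encodes HP1 alpha, went from 6.72 to 3.86, from 15.9 to 8.14 and from 2.10 to 0.905 FPKM, and CHD3, a subunit of the deacetylase complex NuRD, from 23.6 to 8.49, from 11.5 to 5.76 and from 16.7 to 7.96 FPKM. On the plain ratios SETDB1, CBX5 and CHD3 were below -0.3 in all lines, where 5.0% of all loci were. After the GC correction they remained so. TRIM28 and CBX3 (-0.56, -0.48 and -0.37) were then below -0.3 in all lines too, where 7.70% of all loci were. None of the 12 had a plain ratio above 0.3 in all lines, where 10.9% of all loci had one. CBX1 had 0.55, 0.10 and 0.34, and CHD4 between -0.19 and -0.04. PPHLN1 had 0.93, -0.72 and 0.87, and MPHOSPH8 lay between -0.04 and 0.11. ATF7IP had 0.25, -0.47 and -0.21, and CBX3 had -0.09, -0.64 and -0.22. FAM208A had -0.27, -0.245 and -0.63, and MORC2 had -0.93, -0.25 and -0.20. Of the other zinc finger families, the 10 ZBTB loci had median log2 ratios of -0.25, 0.01 and -0.06, and the ZFP, ZSCAN and ZKSCAN families had 4, 2 and 2 loci, too few to summarise.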

How the data were processed

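RNA of 3 bladder cancer lines was sequenced after quisinostat or DMSO, with groups taken from the labels. The authors prepared stranded polyadenylated libraries for the NovaSeq, and per the submitters' processing notes used CASAVA 1.8.2, Trimmomatic 0.36, HISAT2 2.2.1, SAMtools 1.15.1 and StringTie 2.2.1 with GRCh38. Gene values came from Ballgown. The deposited values are FPKM, scaled by the authors to transcript length and mapped fragments, with no stated GC correction. Counts and depth are unknown, and near-identical genes can share fragments. No value column was left unmapped (0).

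The members and lists were chosen with earlier results of these data known. A single value per assembled locus was used, apart from the ratios by promoter motif, which were taken per gene. Log2 ratios took loci with a mean of at least 1 FPKM and above 0 in all 6 libraries, the limit was 0.3, and groups had 1 library each, so no test was made within a line. Across lines, limma 3.58.1 (R 4.3.3) was fitted on log2(FPKM + 1) with a mean-variance trend and cell line as a block, since both libraries of a pair come from the same line, and Benjamini-Hochberg adjustment over all loci. GC content, positions, KRAB pattern, fingers and shared 31-base windows came from GENCODE 29 transcripts (longest coding transcript, longest open reading frame), and promoters from RefSeq. The GC correction subtracted a lowess curve (span 0.3), and GC was known for 92.8% of loci. Both steps were tested on simulated data. Python 3.11.15, pandas 2.3.3, SciPy 1.17.1 and statsmodels 0.14.6 were used.

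Named genes were members with known roles, the 5 with the highest and the 5 with the lowest weakest ratio, the 5 with the highest mean FPKM, members silent in a line and those next to the level of 1 FPKM. ZNF10, ZNF445 and ZNF750 were on the list of roles and have no entry by that name in the table used here. Alternatives were pseudocounts of 1 and 0.1, other filters, single-name loci, centring, a common sum, GC correction, limits of 0.5 and 1, each line left out, and limma without trend, filter or block or after quantile normalization. In limma, the pseudocount of 0.1, the GC correction and leaving out a line were added after seeing the data.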

Additional observations from a re-analysis of the deposited data

Results flagged for a closer look

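A member was listed here when the ratios of single lines pointed past 0.3 in opposite directions among the genes named for their role or level. ZNF703 had a log2 ratio of 1.24 in RT112 cells, where it was higher with quisinostat, and of -0.75 in RT4 cells, where it was lower. ZNF552 had 0.83 in RT4 cells, higher, and -0.34 in SW780 cells, lower. With 1 library per line and treatment, neither difference between lines was tested, and dose and line changed together. Ratios past 0.3 in opposite directions in RT4 and RT112 were found at 28 of 126 member loci (22.2%) and at 22.4% of all loci. For RT4 and SW780 the members' share was 4.76%, against 8.17% of all loci.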

How the results depend on the processing

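The number of members higher in all lines, 14, became 6 (4.58%) with a pseudocount of 1, where 8.95% of all loci were higher. It became 2 with a mean of at least 5 FPKM, 6 at a limit of 0.5 and 0 at a limit of 1, which 2.61% of all loci passed. The number lower in all lines, 5, became 8 (6.35%) after the GC correction, where 7.70% of all loci were lower. It became 1 with a mean of at least 5 FPKM, 2 at a limit of 0.5 and 0 at a limit of 1, where 0.258% of all loci were lower. With a line left out, the counts in the remaining pair of lines ran from 16 to 29 higher and from 8 to 20 lower, with the upper ends reached without RT112. As shares these were 12.7% to 23.0% and 6.35% to 15.9%, against 15.3% to 22.7% and 8.19% to 17.9% of all loci. The RT4 median of the members turned from 0.06 to -0.12 after the GC correction, and the difference of chromosome 19 and other members reversed to -0.14 in RT4 and to -0.0021 in SW780 cells. ZNF703 reversed in RT4 cells, to 0.56, with the GC correction. Of 264 values of the 22 named members under centring, a common sum, a pseudocount of 1 and the GC correction, 234 moved by less than 0.3 and 30 by more. The GC correction in RT4 cells changed the sign of 4 of these 30, namely ZNF703, ZNF91 (to -0.52), ZNF93 (to -0.36) and ZNF143 (to -0.23). For limma, the 4 higher and 3 lower members at an unadjusted p under 0.05 became 6 lower (4.58%) without the trend, where 3.52% of all loci were lower. After quantile normalization 1 was higher (0.763%, against 6.575% of all loci) and 6 were lower (4.58%, against 6.12%). After the GC correction 7 were lower (5.34%, against 10.5% of all loci). Without the replicate block, which pairs the libraries of a line, 0 members were higher and 1 lower, against 3.33% and 1.12% of all loci. With a line left out the limma counts of members ran from 1 to 8 higher and from 0 to 10 lower, the most without RT112. Over all loci the shares ran from 4.14% to 12.4% higher and from 0.785% to 9.43% lower. No member reached an adjusted p under 0.05 in any limma setting. The higher FPKM level and the higher limits leave fewer members by construction, and the cause of the other shifts was not tested. The depth, which is unknown, limits values near 0.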
